A study of Mus musculus with 3 samples.

Results

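OSOM-TAL_a is a cluster of thick ascending limb (TAL) cells named for the outer stripe of the outer medulla (OSOM), one of 7 loop of Henle (LOH) clusters in a single-cell annotation of the mouse renal medulla. Its members were the cells that carry this cluster name under the cell type LOH. They numbered 10464 of 181257 cells, which was 5.77% of all cells and 14.6% of the 71510 LOH cells. The study named its clusters from published anchor genes. The marker genes Slc12a1 and Umod were not analysed here, since the tables used hold no values for single genes, so the name stands as the authors gave it and was not checked.

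The TAL reabsorbs sodium chloride but not water. Salt enters the cell through the apical Na-K-2Cl cotransporter NKCC2, the product of Slc12a1. Its sodium leaves through a basolateral Na-K-ATPase that is fed by densely packed mitochondria. This reabsorption dilutes the tubular fluid and supplies salt to the medullary osmotic gradient on which urine concentration rests. TAL cells also make uromodulin, the product of Umod. The inner stripe holds the medullary beginning of this segment, and the outer stripe holds its continuation toward the cortex, where it runs beside the last part of the proximal tubule (PT).

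The cells came from male BALB/c mice. In the treated mice the left ureter was clamped at 12 to 13 weeks of age and later released (reversible unilateral ureteric obstruction, R-UUO), and the right kidney was removed 10 days after the release. Tissue was taken 28 or 84 days after R-UUO, or from healthy controls, for which no nephrectomy or age is stated. A pool of tissue from 3 to 4 mice served as the replicate. There were 4 pools of healthy controls, 4 of day 28 and 2 of day 84. The labels call the tissue kidney papilla, whereas the methods describe dissected medullas with a variable amount of outer medulla, and the annotation holds outer stripe and PT clusters in every pool. The assay hybridises probe pairs to RNA in fixed cells and counts unique molecular identifiers (UMIs), each standing for one ligated pair.

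The pools held 13013 to 24338 cells, with a median of 751 to 3302 UMIs per cell over all cells of a pool. Among OSOM-TAL_a cells, 55.9% in the controls, 47.7% at day 28 and 25.1% at day 84 had a droplet barcode that another pool of the same condition also held, against 57.5%, 48.6% and 24.7% of all cells. A barcode seen in another condition was carried by 10.7%, 11.4% and 12.2% of them. Barcodes were thus shared far more often within a condition than between conditions, and droplet run and condition cannot be told apart in any comparison below. Of the pools that stood apart, UMI values were fractional in Control 1. Control 2 held more OSOM-TAL_b cells and higher mitochondrial percentages than the other controls, and D28 1 was the most deeply read. Results that turn on one of these pools are given without it.

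OSOM-TAL_a cells were more frequent at day 28. They were 3.70%, 6.07%, 5.69% and 3.81% of all cells in Control 1 to Control 4. In D28 1 to D28 4 they were 8.81%, 7.70%, 7.87% and 7.81%, and in D84 1 and D84 2 they were 3.55% and 5.16%. Every day 28 pool was above every control pool, and both day 84 pools lay within or just below the control range.

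Control pools averaged 4.82% ± 1.24 (SD, n = 4 pools) of all cells and the day 28 pools 8.05% ± 0.515 (SD, n = 4). Counting error was smaller than this spread, since the exact 95% binomial interval of a pool was 3.44% to 3.97% in Control 1 and 8.33% to 9.31% in D28 1. Shares were compared as log2 odds, the log2 of the cells inside a cluster over the cells outside it. The day 28 difference was 0.82 (standard error, SE, 0.239, limma adjusted p = 0.0107; exact permutation p = 0.0286, the smallest that 4 pools against 4 can give). Among all 25 clusters, 22 (88%) passed in that comparison, so a changed share was the rule in this table and not particular to OSOM-TAL_a.

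At day 84 the log2 odds of all cells differed from control by -0.14 (95% interval -0.81 to 0.52, limma adjusted p = 0.665), in a comparison where 12 of 25 clusters (48%) passed. Between day 84 and day 28 it differed by -0.97 (limma adjusted p = 0.0528), with 2 of 25 clusters (8%) passing. That difference passed with edgeR (-0.89, adjusted p = 0.0363), with PT cells left out (-1.14, limma adjusted p = 0.0362) and without Control 2 (limma adjusted p = 0.0453).

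PT cells, of which the last part of the segment lies in the outer stripe, also varied between pools. Their total takes in 4 PT clusters. PT-S1S2 alone was 9.04% of all cells in D28 1 and 6.74% in D28 3. PT cells together made up 0.435%, 3.02%, 1.12% and 0.113% of the cells of Control 1 to Control 4. At day 28 they were 22.8%, 21.2%, 12.98% and 2.95%, and at day 84 they were 3.60% and 7.64%. D28 1 to D28 3 held the highest shares, and D28 4 lay within the control range.

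With PT cells left out of the total, OSOM-TAL_a cells averaged 4.89% ± 1.31 (SD, n = 4) of the control pools. The day 28 pools then averaged 9.57% ± 1.42 (SD, n = 4), and those of day 84 averaged 4.63% ± 1.35 (SD, n = 2). The day 28 difference was then 1.07 (limma adjusted p = 0.00378). Whether the depth of the dissection had a part in these shares was not tested.

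**Figure D1:**
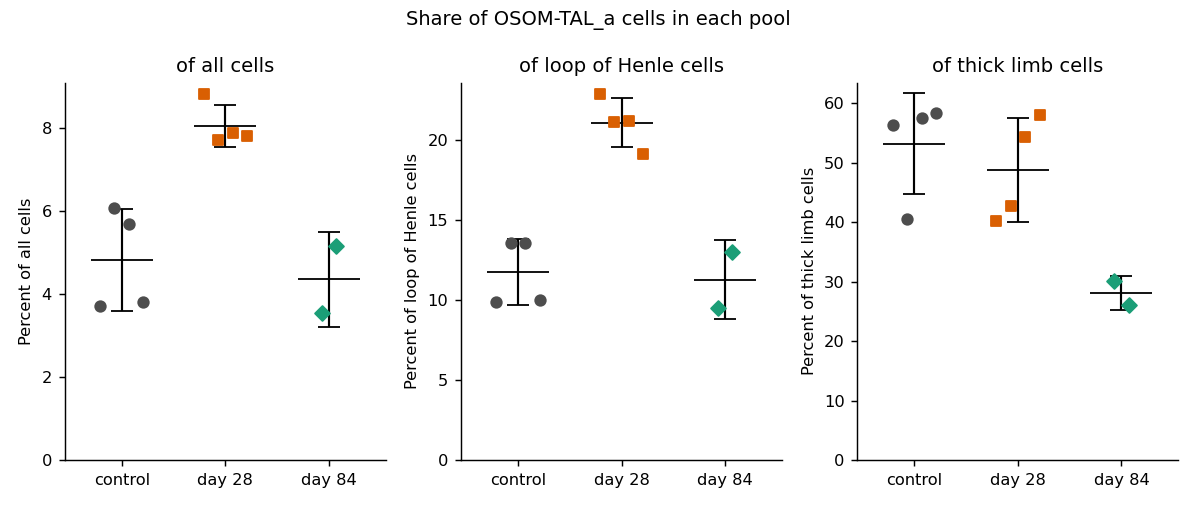
Percent of OSOM-TAL_a cells among all cells, LOH cells and the cells of the 3 TAL clusters; each point is a pool, the bar is the mean of the pools and the whiskers are the SD. The day 28 pools, at 7.70% to 8.81% of all cells, lie above all control pools in the first and second panels, and the day 84 pools, at 26.1% and 30.1% of TAL cells, lie below all others in the last.

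Within the LOH lineage the same cells were 9.89%, 13.5%, 13.5% and 9.98% of LOH cells in the control pools. At day 28 they were 22.9%, 21.1%, 21.2% and 19.1%, and at day 84 they were 9.50% and 12.999%. The day 28 and control ranges did not overlap. Among the 7 LOH clusters 6 (85.7%) passed between day 28 and control, 5 (71.4%) between day 84 and control, and 2 (28.6%) between day 84 and day 28.

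Part of the LOH total was the cluster InjuredLOH. Without it, OSOM-TAL_a made up 9.92% to 13.6% of the remaining LOH cells in the controls, 27.1%, 27.6%, 27.9% and 29.6% in the day 28 pools, and 13.3% and 13.9% at day 84. The day 28 pools then lay closer together, with an SD of 1.09 against 1.53 with InjuredLOH included. The log2 odds difference at day 28 was 1.56 (SE 0.179, limma adjusted p = 2.48e-05) in place of 1.02. The difference between day 84 and control was 0.25 (limma adjusted p = 0.487) in place of -0.07.

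Among TAL cells alone, meaning OSOM-TAL_a, OSOM-TAL_b and the inner stripe cluster ISOM-TAL, the share of OSOM-TAL_a was lower at day 84. It was 56.4%, 40.6%, 57.6% and 58.4% in the control pools and 40.2%, 42.7%, 54.4% and 58.0% in the day 28 pools. It was 30.1% in D84 1 and 26.1% in D84 2. The day 84 pools were below all other pools, and the control and day 28 pools overlapped.

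The log2 odds among TAL cells differed by -0.26 at day 28 (95% interval -1.08 to 0.56, limma adjusted p = 0.524, 2 of 3 clusters passed, 66.7%). They fell by 1.55 at day 84 (SE 0.483, limma adjusted p = 0.00426, 3 of 3 clusters passed, 100%). With edgeR on the cell counts the share fell by 0.92 (adjusted p = 0.00139). The edgeR value is a log2 fold of the share, so its size cannot be set against that of the log2 odds. For day 84 and control the exact permutation test gave p = 0.0667, the smallest that 4 pools against 2 allow. The difference between day 84 and day 28 was -1.29 (limma adjusted p = 0.0213, 2 of 3 clusters passed, 66.7%), and this call was lost without D28 3 (limma adjusted p = 0.0561), D84 1 (0.0663) or D84 2 (0.151) and on keeping only cells with 500 or more genes and no more than 5% mitochondrial counts, the stricter filter below (-0.82, limma adjusted p = 0.249).

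The partner cluster OSOM-TAL_b was 2.96% to 12.7% of TAL cells in the controls, 24.7% to 36.9% at day 28, and 58.1% and 57.5% at day 84. There were 19.0, 3.19, 15.5 and 7.91 OSOM-TAL_a cells per OSOM-TAL_b cell in the control pools. The ratio was 1.13, 1.16, 2.21 and 1.89 at day 28, and 0.517 and 0.453 at day 84. OSOM-TAL_a was thus the larger outer stripe cluster in every control and day 28 pool and the smaller one in both day 84 pools.

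A ratio of 2 clusters does not depend on how many other cells a pool holds. The log2 ratio of OSOM-TAL_a to OSOM-TAL_b fell by 2.59 at day 28 (SE 0.538, limma adjusted p = 0.00138). It fell by 4.25 at day 84 (SE 0.659, limma adjusted p = 4.30e-04). Between day 84 and day 28 it differed by -1.66 (limma adjusted p = 0.0611). That difference passed only without Control 2, a pool of neither group (limma adjusted p = 0.0205). The call was the same in 9 of 10 fits that left out a pool and in 5 of 5 other settings. Of the 24 ratios of OSOM-TAL_a to another cluster, 18 (75%) passed at day 28, 10 (41.7%) at day 84 and 9 (37.5%) between the times. Since all 24 share a numerator, they are not independent of each other. Among the clusters, 8 had under 20 cells in a pool and were kept in the ratios, so those ratios rest on few cells there.

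Against ISOM-TAL, the TAL cells of the inner stripe, there were 1.39, 0.868, 1.49 and 1.70 OSOM-TAL_a cells per cell in the control pools. At day 28 the ratio was 1.66, 2.08, 2.60 and 5.11, and at day 84 it was 2.54 and 1.59. D28 4 was highest and Control 2 lowest, and D28 1 lay below Control 4. The log2 ratio rose by 0.98 at day 28 (limma adjusted p = 0.0485). That call was lost on leaving out Control 1, Control 2, Control 3, D28 2, D28 3 or D28 4 (limma adjusted p from 0.0583 to 0.109), with the stricter filter on genes and mitochondrial counts (0.45, limma adjusted p = 0.321), and in the exact permutation test (p = 0.0571). At day 84 the difference was 0.60 (95% interval -0.50 to 1.71, limma adjusted p = 0.337).

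InjuredLOH, which the authors annotate as injured LOH cells, was rare in the controls. There were 28.9, 27.4, 91.1 and 26.7 OSOM-TAL_a cells per InjuredLOH cell in the control pools, where Control 3 held 9 InjuredLOH cells. At day 28 the ratio was 1.47, 0.896, 0.872 and 0.540, and at day 84 it was 0.334 and 2.03. All 6 pools after R-UUO lay far below all control pools.

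This was the most negative of the 24 ratio changes at day 28. The log2 ratio to InjuredLOH fell by 5.36 at day 28 (SE 0.615, limma adjusted p = 4.27e-05). It fell by 5.46 at day 84 (SE 0.753, limma adjusted p = 2.13e-04). The most positive at day 28 was the ratio to EndoVR/papilla, the endothelial cluster named for vasa recta and papilla, which rose by 3.85 (SE 0.875, limma adjusted p = 0.00226). At day 84 the most negative was the ratio to InjuredCD, the injured collecting duct (CD) cells, which fell by 6.16 (SE 0.528, limma adjusted p = 8.64e-06). The mean log2 ratio to InjuredCD was 6.04 in the controls, where these cells were few. The most positive at day 84 was again EndoVR/papilla, at 2.40, and did not pass (limma adjusted p = 0.0900).

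By lineage, OSOM-TAL_a rose at day 28 against 4 of 6 other LOH clusters, namely ATL, DTL, IM-TL and ISOM-TAL, and fell against 2. It rose against 3 of 6 CD clusters, 2 of 3 endothelial clusters, 1 of 3 fibroblast clusters and the intercalated cells. It fell against 3 of 4 PT clusters, with log2 changes of -5.14 for PT-S1S2, -4.43 for PT-S2 and -2.80 for PT-S3_a, against the immune cells and against InjuredCD. The ratio to PT-S3_b changed by -2.27 and did not pass (limma adjusted p = 0.0505). In the controls the mean log2 ratio was 5.89 for PT-S1S2 and 6.52 for PT-S2, so these changes also start from few cells.

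At day 84 only the ratio to ATL rose past the threshold (1.17, limma adjusted p = 0.0416). The 9 ratios that fell were those to OSOM-TAL_b, InjuredLOH, InjuredCD, OM-CD_b, Uro, MyoFib, the immune cells, PT-S1S2 and PT-S3_a. Between day 28 and day 84, 9 ratios fell, 0 rose and 15 did not pass. The largest fall was against Endo_b (-2.93, limma adjusted p = 0.0100), and the most positive difference was against PT-S2 (1.79, limma adjusted p = 0.310). Without D84 1, 5 of 24 ratios passed at day 84 and 0 of 24 between the times.

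**Figure D2:**
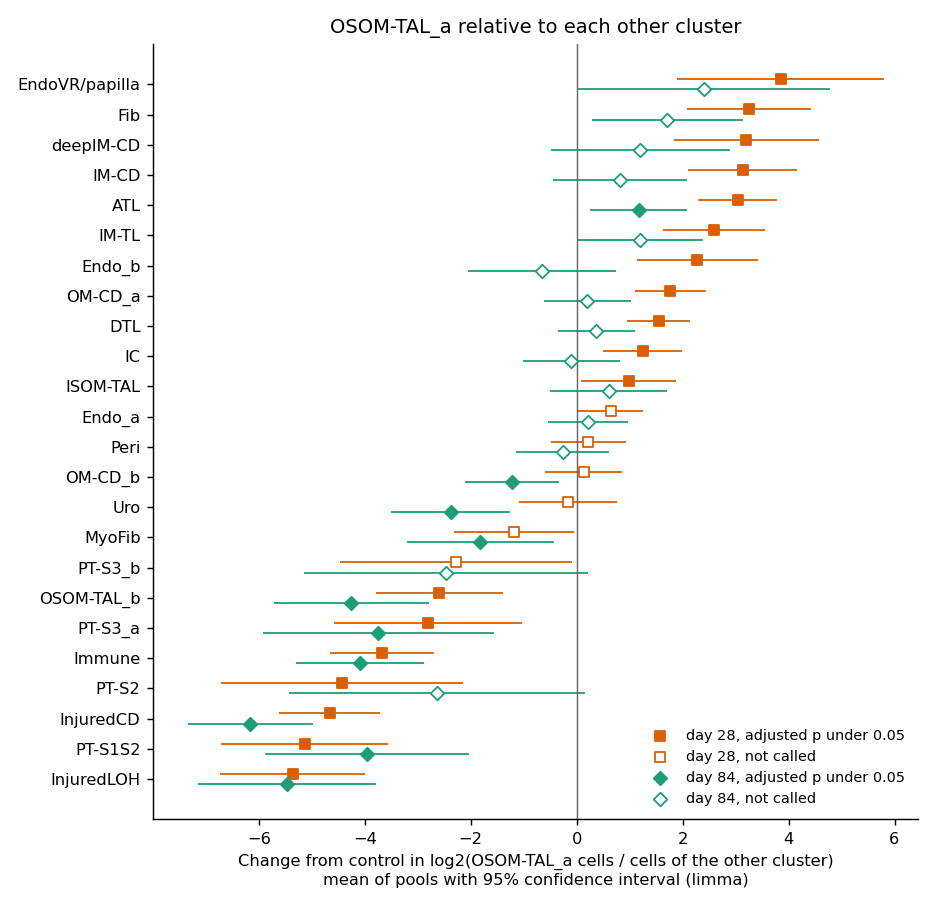
Change from control in the log2 ratio of OSOM-TAL_a cells to the cells of each of the 24 other clusters, as the difference of pool means with its 95% interval; squares are day 28, diamonds day 84, and filled symbols passed a limma adjusted p of 0.05. The day 28 values run from -5.36 for InjuredLOH to 3.85 for EndoVR/papilla.

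OSOM-TAL_a cells carried a moderate number of UMIs, more than OSOM-TAL_b and fewer than ISOM-TAL. Their median UMI count per cell was 1533, 1693.5, 1454 and 1381 in the control pools. It was 3878, 2731.5, 2394 and 2244.5 in the day 28 pools, and 966 and 882.5 in the day 84 pools. The 3 conditions did not overlap, with day 28 highest and day 84 lowest.

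The median UMI count rose by 0.86 on the log2 scale at day 28 (SE 0.247, limma adjusted p = 0.00233), where 10 of 17 clusters with at least 20 cells in every pool passed (58.8%). It fell by 0.71 at day 84 (limma adjusted p = 0.0437, 9 of 17 passed, 52.9%, exact permutation p = 0.0667). The day 84 call was lost on leaving out any one control pool, D28 2, D28 3 or either day 84 pool (limma adjusted p from 0.0515 to 0.258), and under the stricter filter (-0.67, limma adjusted p = 0.0805). From day 28 to day 84 it fell by 1.57 (limma adjusted p = 1.43e-05), where 17 of 17 clusters passed (100%).

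To take out the depth that all clusters of a pool share, the mean of the other 16 clusters' medians was subtracted. On this scale OSOM-TAL_a was 0.37 higher at day 28 than in the controls (SE 0.0767, limma adjusted p = 0.00136), which is 1.30 times. Of the 17 clusters 9 passed (52.9%), 6 of them higher (35.3%). Among the 17 clusters this was the fifth largest difference, the others ranging from -1.10 to 0.47. Against the other LOH clusters alone it was 0.14 and did not pass (limma adjusted p = 0.139).

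At day 84 the relative UMI count differed from control by 0.01 (95% interval -0.19 to 0.22, limma adjusted p = 0.899, 5 of 17 clusters passed, 29.4%). The difference between the times was -0.36 (SE 0.0939, limma adjusted p = 0.0449), and OSOM-TAL_a was the 1 cluster of 17 (5.88%) that passed there. Without Control 1, Control 3, Control 4, D28 2, D28 3, D28 4, D84 1 or D84 2 that call was lost (limma adjusted p from 0.0608 to 0.250).

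The median of OSOM-TAL_a was 1.58, 1.31, 1.69 and 1.39 times that of OSOM-TAL_b in the control pools. It was 1.52, 1.80, 1.98 and 1.70 times at day 28 and 1.42 and 1.51 times at day 84, so it was above OSOM-TAL_b in all 10 pools. Compared with ISOM-TAL it was 0.354 to 0.573 times in the controls, 0.390 to 0.573 times at day 28, and 0.325 and 0.307 times at day 84. The log2 ratio to OSOM-TAL_b differed by 0.23 at day 28 (exact permutation p = 0.114) and by -0.02 at day 84 (p = 0.867). That to ISOM-TAL differed by -0.08 (exact permutation p = 0.657) and -0.60 (p = 0.133), in 4 pools against 4 and 4 against 2.

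In the order of the 17 clusters by median UMIs, OSOM-TAL_a ranked between the fourth and the seventh from the top in every pool. Its neighbours were most often Endo_b and the intercalated cells. In Control 4 it lay at 1381 UMIs between Endo_b at 1600 and intercalated cells at 1358, and in D84 1 it lay at 966 between Uro at 1469 and Endo_b at 949.

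UMI counts varied little among its cells. The upper quartile was 1.36 to 1.39 times the lower quartile in the control pools, 1.39 to 1.55 times at day 28, and 1.47 and 1.51 times at day 84. In 7 of 10 pools, namely Control 2 to Control 4 and all day 28 pools, this was the narrowest spread among the 17 clusters. At day 84 OSOM-TAL_a ranked 15 in D84 1 and 12 in D84 2, counted from the widest of the 17. For ISOM-TAL the same quotient was 1.65 to 4.52 over all pools. For OSOM-TAL_b it was 1.39 to 2.65 in the controls and 1.54 to 1.93 at day 28. It was 1.42 in D84 1 and 1.35 in D84 2, narrower than OSOM-TAL_a in both. Cells with over 2 times the pool's median UMI count made up 1.55% to 4.40% of OSOM-TAL_a cells per pool.

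**Figure D3:**
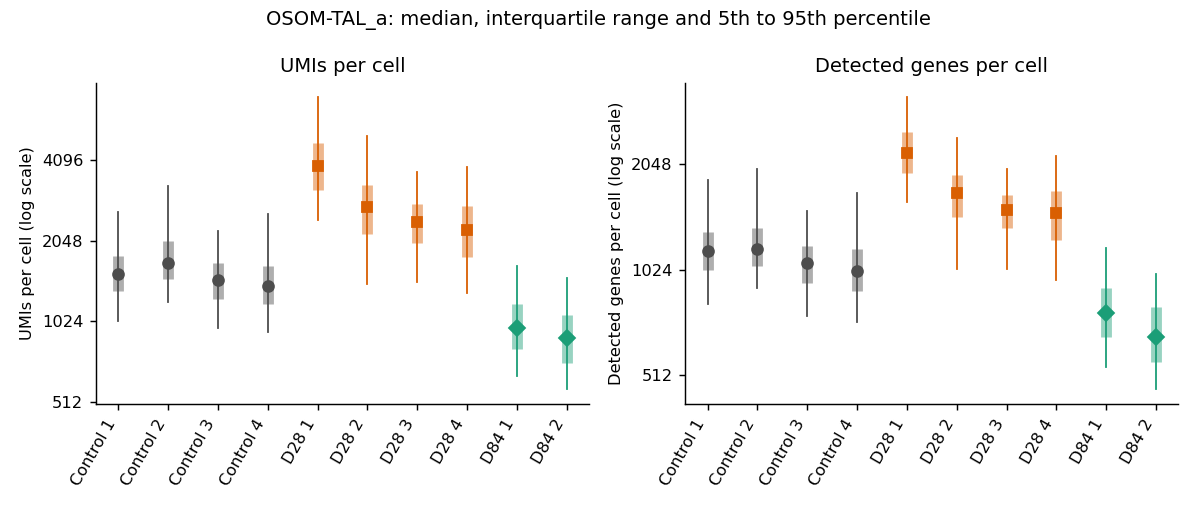
UMIs and detected genes per OSOM-TAL_a cell in each pool, both on a log scale; the symbol is the median, the thick bar the interquartile range and the thin line the 5th to 95th percentile. Medians of the day 28 pools lie at 2244.5 to 3878 UMIs, above the control pools at 1381 to 1693.5, and those of day 84 lie below both.

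Detected genes followed the UMIs. The median number of detected genes per OSOM-TAL_a cell was 1157, 1175.5, 1075 and 1016 in the control pools. It was 2211, 1698.5, 1514.5 and 1485.5 at day 28 and 773 and 659 at day 84. Again the conditions did not overlap.

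The median rose by 0.63 on the log2 scale at day 28 (SE 0.190, limma adjusted p = 0.00531, 10 of 17 clusters passed, 58.8%). It fell by 0.63 at day 84 (SE 0.232, limma adjusted p = 0.0159, 13 of 17 passed, 76.5%), a call lost without D84 2 (limma adjusted p = 0.219). From day 28 to day 84 the change was -1.26 (limma adjusted p = 2.81e-06, 17 of 17 passed, 100%).

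Relative to the other 16 clusters the number of detected genes was 0.30 higher at day 28 (SE 0.0631, limma adjusted p = 0.00185, 9 of 17 clusters passed, 52.9%), and 0.13 higher against the other LOH clusters alone (limma adjusted p = 0.0787). At day 84 the relative difference from control was 0.00 (95% interval -0.17 to 0.17, limma adjusted p = 0.990, 5 of 17 passed, 29.4%). Between the times it differed by -0.30 (limma adjusted p = 0.0232, 3 of 17 passed, 17.6%), which was lost without D28 2 (0.0615), D84 1 (0.107) or D84 2 (0.145).

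Detected genes were also compared within a window of UMI counts. Cells with 2000 to 2500 UMIs had a median of 1651, 1420, 1443 and 1476 detected genes in the control pools and 1557.5, 1486, 1453 and 1486 in the day 28 pools. The values overlapped, with the fractional pool Control 1 highest. The window narrowed the difference in depth but did not remove it: the median UMIs inside it were 2130 to 2239 in the control pools and 2246 to 2330.5 in the day 28 pools, each of which was deeper than each control pool. The log2 difference was 0.00 (95% interval -0.09 to 0.09, limma adjusted p = 0.995), and 1 of the 6 clusters that could be compared passed (16.7%).

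Cells with 1000 to 1250 UMIs had a median of 918, 894.5, 886 and 866 detected genes in the control pools against 865 and 806 at day 84. Both day 84 pools were below all control pools, D84 1 by 1 gene. They were also less deep, with 1104.5 and 1097 median UMIs inside the window against 1134 to 1186 in the control pools, and the part of this depth in the difference was not tested. The log2 difference was -0.09 (95% interval -0.20 to 0.01, limma adjusted p = 0.238), and 1 of 10 clusters (10%) passed. Without D84 1 it was -0.14 and passed (limma adjusted p = 0.0445).

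In the deposited values, mitochondrial counts were almost absent from OSOM-TAL_a cells after R-UUO. The authors corrected the counts for free RNA, and whether this had a part in these values was not tested. The mitochondrial percent is the share of a cell's UMIs from mitochondrially encoded genes. Its mean over OSOM-TAL_a cells was 0.979%, 1.91%, 0.881% and 1.36% in the control pools. It was 0.106%, 0.0284%, 0.00594% and 0.00124% in D28 1 to D28 4, and 0.0247% and 0.00127% at day 84. The highest pool after R-UUO was below the lowest control pool.

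The mean percent fell by 1.25 percentage points at day 28 (SE 0.201, limma adjusted p = 3.50e-05) and by 1.27 points at day 84 (SE 0.246, limma adjusted p = 2.20e-04). All 17 of 17 clusters (100%) passed in each of these comparisons, so this was a change of the whole table that OSOM-TAL_a shared. Between day 84 and day 28 the difference was -0.02 points (SE 0.246, limma adjusted p = 0.997). There, 0 of 17 clusters (0%) passed, with 0 past an unadjusted p of 0.05. For OSOM-TAL_a this fit could not decide whether the times differ, since its error takes in the control pools, which varied most. The SD of the pools was 0.465 points in the controls, 0.0483 at day 28 and 0.0166 at day 84. No pool after R-UUO was above 0.106%, which is less than the SE. Both day 84 pools lay within the day 28 range of 0.00124% to 0.106%.

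Counted per cell, 0 of 723 cells in Control 1 and 0 of 1478 in Control 2 had no mitochondrial UMI. The exact 95% binomial interval of these shares reached up to 0.509% and 0.249%. In Control 3 and Control 4 the share was 1.22% and 0.516% of cells. At day 28 it was 56.2%, 79.6%, 95.5% and 98.5%, and at day 84 it was 85.3% and 99.0%. D28 1, the most deeply read pool, had the lowest share after R-UUO.

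The log2 odds of having no mitochondrial UMI rose by 12.1 at day 28 (SE 2.14, limma adjusted p = 1.88e-06, exact permutation p = 0.0286). They rose by 13.5 at day 84 (SE 2.63, limma adjusted p = 1.58e-06, exact permutation p = 0.0667). By limma, 17 of 17 clusters (100%) passed in both. With 2 control pools at 0 the size of these changes rests on the 0.5 cells added to each part. Between day 28 and day 84 the log2 odds differed by 1.38 (limma adjusted p = 0.638, 0 of 17 passed, 0%). At a mitochondrial percent of 3 or more there were 3.04%, 16.2%, 3.05% and 10.6% of OSOM-TAL_a cells in the control pools, 3 cells in D28 1 and 0 cells in the other pools after R-UUO.

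The difference was also present within both windows of UMI counts. At 2000 to 2500 UMIs the mean mitochondrial percent was 1.43, 2.16, 1.39 and 1.47 in the control pools and 0.153, 0.0162, 0.00291 and 0.00167 in the day 28 pools. The difference was -1.57 percentage points (SE 0.161, exact permutation p = 0.0286, the smallest that this number of pools can give). The limma adjusted p was 1.96e-11, with 6 of 6 clusters passing (100%). Its error was estimated in part from other clusters of the same pools, so it can overstate the evidence from so few pools. At 1000 to 1250 UMIs the mean was 0.659 to 1.33 in the controls against 0.0255 and 0.00118 at day 84. This was a difference of -0.95 points (SE 0.228, limma adjusted p = 0.00330, exact permutation p = 0.0667, 10 of 10 clusters passed by limma, 100%).

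**Figure D4:**
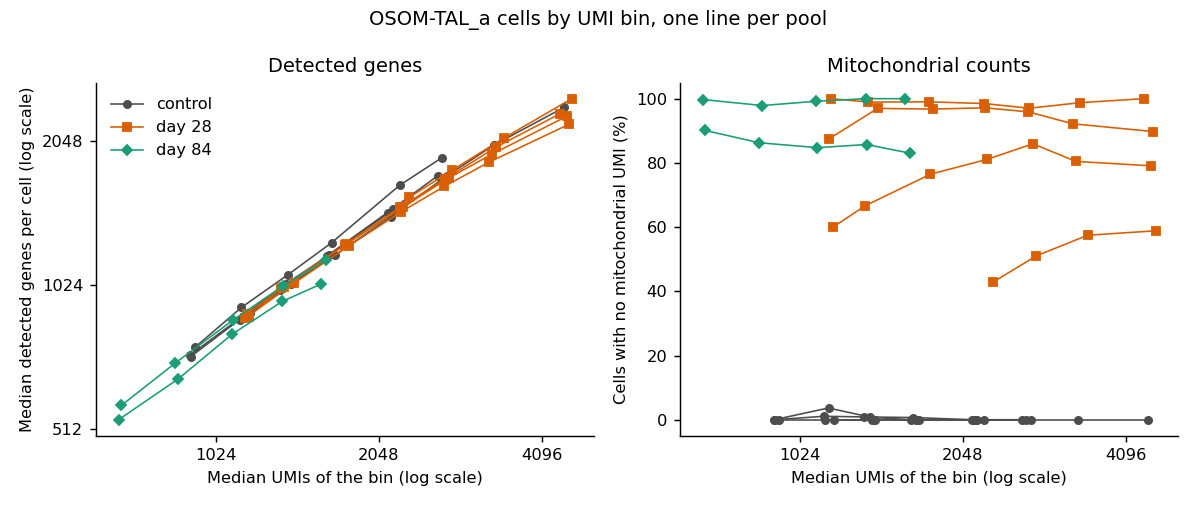
OSOM-TAL_a cells grouped into bins of UMI count, with one line per pool and only bins of at least 20 cells; the left panel gives the median detected genes and the right panel the percent of cells with no mitochondrial UMI, against the median UMIs of the bin on a log scale. In the left panel the lines of the 3 conditions run close together, with Control 1 above and D84 2 below the others, while in the right panel every control bin is at or below 3.66% and every bin after R-UUO is at or above 42.9%.

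The TAL clusters differed from each other in what remained. OSOM-TAL_b was at 0.861% to 1.47% in the controls, and at 0.0299% or less after R-UUO. ISOM-TAL was at 4.94%, 4.86%, 4.16% and 5.31% in the control pools. It was at 3.76%, 1.79%, 3.09% and 1.94% at day 28 and at 2.60% and 3.23% at day 84. The mean of OSOM-TAL_a was 0.198 to 0.392 times that of ISOM-TAL in the control pools, 6.37e-04 to 0.0281 times at day 28, and 0.00949 and 3.94e-04 times at day 84.

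In cells of ISOM-TAL the share with no mitochondrial UMI was 0.581% to 23.1% at day 28, against 56.2% to 98.5% in OSOM-TAL_a of the same pools. In each of the 6 pools after R-UUO it was lower in ISOM-TAL than in OSOM-TAL_a. ISOM-TAL cells also held more UMIs, with a median of 5030 to 6767 at day 28 against 2244.5 to 3878. The part of this depth in the difference between the clusters was not tested.

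Relative to the mean of the other 16 clusters, the mitochondrial percent of OSOM-TAL_a went from -0.64 points in the controls to -0.23 at day 28 and -0.21 at day 84. These differences of 0.41 and 0.43 points passed (limma adjusted p = 0.00228 and 0.00559), as did 15 of 17 clusters (88.2%) in each comparison, 11 of them higher (64.7%). They are differences in points among values that all came down. Against the other LOH clusters alone, the differences were 0.30 and 0.24 points and did not pass (limma adjusted p = 0.0878 and 0.294). The relative percent differed between the times by 0.02 points (limma adjusted p = 0.947, 0 of 17 passed, 0%).

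**Figure D5:**
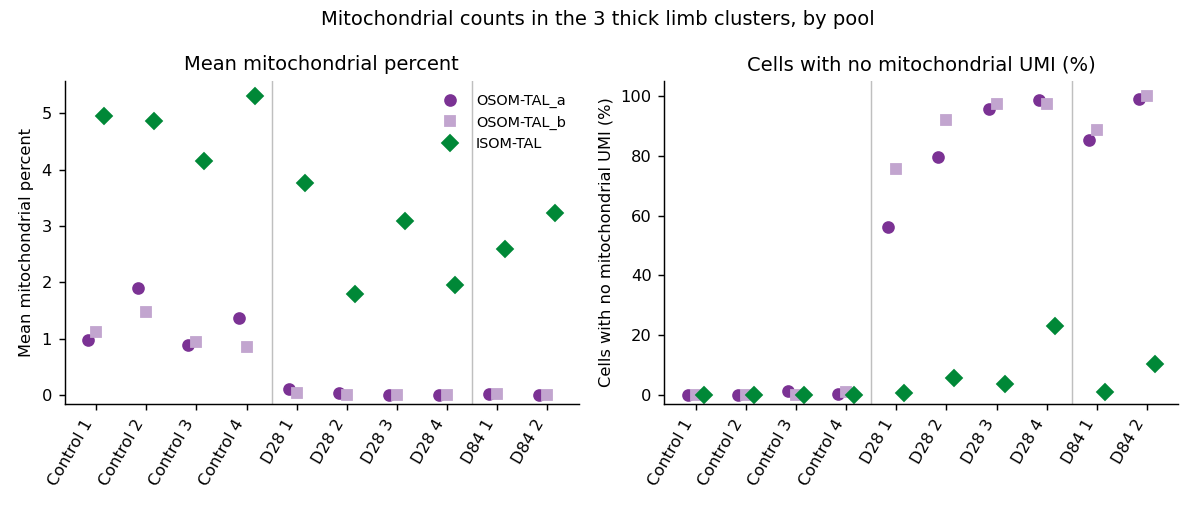
Mean mitochondrial percent and percent of cells with no mitochondrial UMI in the 3 TAL clusters, by pool, with vertical lines between the conditions. In the left panel, circles (OSOM-TAL_a) and light squares (OSOM-TAL_b) drop to near 0% in the pools after R-UUO. Diamonds (ISOM-TAL) lie at 4.16% to 5.31% in the controls and lower, at 1.79% to 3.76%, after R-UUO.

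Within a control pool, cells with more UMIs had a somewhat higher mitochondrial percent. Split into 4 equal sets by UMI count, OSOM-TAL_a cells of Control 1 had a mean of 0.843% in the set with fewest UMIs and 1.21% in that with most, and those of Control 3 had 0.706% and 1.16%. In Control 2 and Control 4 the next-to-highest set had the highest mean, at 2.28% and 1.62%. Spearman's rho across the cells of a control pool was 0.156 to 0.225 and is a description, since cells of a pool are not replicates. After R-UUO it was -0.0744 to 0.0703.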

How the data were processed

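The authors fixed, dissociated and probe-hybridised each pool and counted UMIs with Cell Ranger 7.1 against mm10, per the submitters' processing notes. They excluded cells under 300 genes or over 10% mitochondrial reads, corrected for free RNA with SoupX, took out doublets (scDblFinder, and cells whose signature mixed cell types), and clustered in Seurat. The deposited values are, per cell, a UMI count (estimated counts, fractional, in Control 1), a count of detected genes and a mitochondrial percent. No OSOM-TAL_a cell was below 300 genes or above 10%.

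Cells were summarised per pool. Log2 odds and log2 ratios (0.5 cells added), median log2 UMIs and genes, and mean mitochondrial percent were compared with limma 3.58.1 (R 4.3.3), all 3 conditions in one fit, two-sided, with Benjamini-Hochberg adjustment over the clusters and a threshold of 0.05. The fits with 17 clusters hold those with at least 20 cells in every pool. In limma the error of a cluster is estimated in part from the other clusters of the fit. These clusters come from the same pools and are not independent, so limma p-values can overstate the evidence from so few pools. The exact permutation tests use the pool values of the compared conditions alone. Alternatives were edgeR 4.0.16 on cell counts, exact permutation tests, other filters and denominators, and leaving out each pool. Binomial intervals and limits at 0 cover counting error only.

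The planned window of 1000 to 2000 UMIs could not be fitted, since D28 1 held 11 such cells. The windows used, the UMI ratios to OSOM-TAL_b and ISOM-TAL, and the total without PT cells and OSOM-TAL_b were chosen after seeing the data. The cluster, lists and tests were chosen with earlier results of these data known. Clusters were named by rule (TAL, InjuredLOH and PT clusters, neighbours in an order, extremes), and others after their values were seen.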

Additional observations from a re-analysis of the deposited data

Results flagged for a closer look

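Of 20 sets of 4 pools examined, 3 had their highest or lowest pool well separated from the rest. About 1 in 20 such sets does so by chance. OSOM-TAL_a was 40.6% of TAL cells in Control 2, against 56.4% to 58.4% in the other controls. It was 8.81% of all cells in D28 1, against 7.70% to 7.87% in the other day 28 pools. At a mitochondrial percent of 3 or more were 0.262% of its cells in D28 1 and 0 cells of the other day 28 pools.

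The effects at day 28 and day 84 against the same controls differed by the limma test of day 84 against day 28. The differences were -1.09 in the log2 odds of LOH cells (adjusted p = 0.0124) and -1.29 in those of TAL cells (0.0213). They were -1.57 in log2 median UMIs (1.43e-05) and -1.26 in log2 median genes (2.81e-06). Relative to the other clusters they were -0.36 for UMIs (0.0449) and -0.30 for genes (0.0232). Of these, the difference among LOH cells did not pass without D84 1 (limma adjusted p = 0.0789), and those among TAL cells and in the relative values were lost without the pools named with them above. Day 84 rests on 2 pools, and the exact permutation p was 0.0667 for each.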

How the results depend on the processing

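The differences between day 28 and control in the share of all cells and of LOH cells, in median UMIs and genes, and in the mitochondrial percent kept their direction and their side of the threshold under every alternative run. The cause of the changes below was not tested, other than where an exact permutation of 4 pools against 2 cannot go below 0.0667.

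The pools carry numbers that recur in each condition, but no source ties a number to a batch, day or mouse. Across the 25 clusters, deviations from the condition's mean log2 odds correlated from -0.417 to 0.538 between same-numbered control and day 28 pools, so the numbers were not taken as pairs. With the pool number as a replicate block, added after seeing the data, day 84 against day 28 no longer passed for relative UMIs (-0.320) and relative genes (-0.255). Genes at 1000 to 1250 UMIs passed at day 84 (-0.118), and relative genes differed there by 0.0404, its sign turned. Between the times the ratio to ISOM-TAL was 3.11e-04, its sign turned, and that to PT-S2 passed (2.89). The replicate block changed the call or direction of no other comparison, and 19, 8 and 8 of 24 ratios passed.

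With the stricter filter of 500 genes and 5% mitochondrial counts, the day 84 difference from control was 0.17 for LOH cells, 0.0524 for all cells and -0.0974 for relative UMIs, each with its sign turned. It was -0.67 for UMIs and 0.26 for the relative mitochondrial percent, no longer passing. Day 84 against day 28 was -0.81 for LOH cells and -0.82 for TAL cells, no longer passing. This filter does not fall evenly on the clusters. The median of OSOM-TAL_b was 578 genes in D84 1 and 485 in D84 2, against 773 and 659 for OSOM-TAL_a. Genes at 2000 to 2500 UMIs differed by -0.00351, and by -0.00574 with means of log2 values. Without InjuredLOH the day 84 difference for LOH cells was 0.25. For all cells day 84 against day 28 passed without PT cells (-1.14) and with edgeR (-0.89, a log2 fold of the share). The day 84 difference without PT cells and OSOM-TAL_b was 0.0721. Relative to other LOH clusters alone, UMIs differed by 0.14 at day 28 and -0.20 at day 84, genes by 0.13 at day 28, and the mitochondrial percent by 0.30 at day 28, 0.24 at day 84 and -0.0621 between the times.

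The exact permutation test did not pass for any comparison with day 84. This took the calls from day 84 against control of -1.55 (TAL cells), -0.71 (UMIs), -0.63 (genes), 13.5 (cells with no mitochondrial UMI), -1.27 and 0.43 (mitochondrial percent and its relative value) and -0.95 (the same at 1000 to 1250 UMIs). It took them from day 84 against day 28 of -1.09 (LOH cells), -1.29 (TAL cells), -1.57 and -0.36 (UMIs and relative UMIs) and -1.26 and -0.30 (genes and relative genes). Of the 24 ratios 0 passed it in either comparison, against 10 and 9 by limma.

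Leaving out 1 pool at a time, day 84 against control ranged from -0.32 to 0.19 for LOH cells, -0.42 to 0.14 for all cells, -0.78 to -0.65 for UMIs, -0.0428 to 0.0459 for relative UMIs, -0.74 to -0.51 for genes, -0.0488 to 0.0296 for relative genes and -0.145 to -0.0426 for genes at 1000 to 1250 UMIs. Day 84 against day 28 ranged from -1.34 to -0.83 for LOH cells, -1.25 to -0.68 for all cells, -1.46 to -1.11 for TAL cells, -0.39 to -0.33 for relative UMIs, -0.32 to -0.27 for relative genes, -0.66 to 3.41 for cells with no mitochondrial UMI, -0.0340 to 0.00111 for the mitochondrial percent and -0.0141 to 0.0630 for its relative value. Genes at 2000 to 2500 UMIs ranged from -0.0244 to 0.0481. The number of ratios that passed ranged from 5 to 13 at day 84 and 0 to 11 between the times. The ratio to InjuredLOH between the times ranged from -1.41 to 1.19, the UMI ratio to OSOM-TAL_b at day 84 from -0.0803 to 0.0425 and that to ISOM-TAL at day 28 from -0.222 to 0.0104.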
